A study of Homo sapiens with 8 samples.

Results

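A set of 10 genes of bone morphogenetic protein (BMP) signalling were followed in oligodendrocyte progenitor cells (OPCs) that had been moved onto 3 culture substrates. The 10 genes were taken by name from the deposited tables, with no measured value in the rule. They were, however, chosen with earlier results of these data known. The authors' published list of genes differing between VNP2 and VN already held BMP4, BMP6, BMPER and ID1. They were the ligands BMP4, BMP6 and BMP7, the secreted binding proteins BMPER and NOG, the membrane pseudoreceptor BAMBI, and the inhibitor of DNA binding genes ID1, ID2, ID3 and ID4. They made up 10 of the 58217 genes with a matched transcript, and all 10 were among the 18201 genes that passed the filter on low counts.

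BMP ligands bind pairs of type I and type II serine/threonine kinase receptors at the cell surface, and the activated receptors phosphorylate SMAD1, SMAD5 and SMAD9, which enter the nucleus with SMAD4. Extracellular antagonists such as noggin hold the ligands away from the receptors, whereas the ID genes are among the direct transcriptional targets of the SMADs. ID proteins are helix-loop-helix proteins without a DNA-binding region that pair with E proteins and keep them from lineage factors such as OLIG1 and OLIG2, and BMP signalling is known for restraining the oligodendrocyte lineage in favour of astrocytes.

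All libraries came from one line, the human embryonic stem cell line H9, differentiated to OPCs and then held in OPC medium for 2 days on one of the coatings. The differentiation that all groups shared included an early exposure to LDN193189, an inhibitor of BMP type I receptors, together with SB431542, an inhibitor of activin and TGF-β type I receptors. The coatings were Matrigel, a basement membrane extract of mouse tumour origin and the control (2 libraries), VN, recombinant vitronectin (3 libraries), and VNP2, a short vitronectin-derived peptide carried on a mussel adhesive protein (3 libraries). Polyadenylated RNA was sequenced. No source says that replicates were separate cultures, so p-values measure the spread between these libraries, which may be technical.

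The libraries held between 37997896 and 39429453 estimated reads each, so depth was nearly equal. VN replicate 1 stood apart from its group: over genes, the median chi-square of its counts was 2.26 against VN replicate 2 and 2.62 against VN replicate 3, whereas VN replicates 2 and 3 stood at 0.784 from each other and sampling alone gives 0.455. Of the markers of the labelled cell type, OLIG1, OLIG2 and PDGFRA were present in every library, whereas SOX10 had 20 estimated reads over all 8 libraries. In bulk RNA, fewer cells of a type and less RNA per cell cannot be told apart, and this holds for every level below.

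The ID genes are the part of the group most directly downstream of the SMADs, and ID1, ID2 and ID3 rose on VNP2 while ID4 did not. Their proximal promoters are therefore shown first: the 250 bases before the annotated start, 5′ to 3′ on the strand of the gene, from RefSeq on GRCh38.p14. The windows are chr20:31605039-31605288 (plus strand) for ID1, chr2:8681806-8682055 (plus strand) for ID2, chr1:23559502-23559751 (minus strand) for ID3 and chr6:19837120-19837369 (plus strand) for ID4. Capitals mark the SMAD-binding letters GTCTG, or CAGAC where the motif lies on the opposite strand.
ID1: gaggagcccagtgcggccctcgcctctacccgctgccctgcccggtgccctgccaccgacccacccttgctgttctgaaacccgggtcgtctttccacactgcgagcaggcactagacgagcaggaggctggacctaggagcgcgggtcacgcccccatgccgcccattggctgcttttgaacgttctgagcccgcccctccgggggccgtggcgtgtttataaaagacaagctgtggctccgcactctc
ID2: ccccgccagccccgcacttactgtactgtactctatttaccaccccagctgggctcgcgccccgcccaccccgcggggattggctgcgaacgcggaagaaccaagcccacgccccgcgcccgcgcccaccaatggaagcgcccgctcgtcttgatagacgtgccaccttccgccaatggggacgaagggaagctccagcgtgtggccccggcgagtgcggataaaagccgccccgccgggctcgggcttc
ID3: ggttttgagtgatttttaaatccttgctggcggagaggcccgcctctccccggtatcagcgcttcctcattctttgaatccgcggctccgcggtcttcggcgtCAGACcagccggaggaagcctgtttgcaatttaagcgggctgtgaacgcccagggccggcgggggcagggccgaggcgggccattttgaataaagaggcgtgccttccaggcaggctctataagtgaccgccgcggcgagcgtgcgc
ID4: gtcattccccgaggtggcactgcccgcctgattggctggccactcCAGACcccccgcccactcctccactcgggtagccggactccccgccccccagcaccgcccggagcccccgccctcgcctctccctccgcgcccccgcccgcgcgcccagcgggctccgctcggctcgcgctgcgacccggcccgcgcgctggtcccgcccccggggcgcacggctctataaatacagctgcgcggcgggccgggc

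The windows were rich in G and C, from 62% in ID3 to 78.8% in ID4. GTCTG was found once in ID3, from 147 to 143 bases before the start, and once in ID4, from 205 to 201 bases before the start. It was found in neither ID1 nor ID2, and 38% of the 34943 RefSeq promoter windows of this length hold it on either strand. The GC-rich SMAD1/5 motif GGCGCC, a palindrome, was in none of the ID windows, and 16.4% of all windows hold at least 1. It was found 3 times in the window of BAMBI, 1 time in a window of BMP4, and 1 and 2 times in windows of BMPER. The SMAD palindrome GTCTAGAC, which contains neither of the other motifs, was in none of these windows and in 0.183% of all. A match is a description of letters only, and these windows leave out everything upstream.

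Values below are normalized counts, that is estimated reads scaled to a common library size and transcript length, unless levels of different genes are compared, where TPM, the deposited length-scaled level, are used. A gene passed the test at an adjusted p under 0.05 in edgeR's quasi-likelihood test with Benjamini-Hochberg adjustment over all genes tested. Between VN and Matrigel, 5 of the 10 genes passed, ID4 higher and BMP4, BMP7, NOG and BAMBI lower, where 15.3% of all genes tested passed (5.66% higher and 9.6% lower). Between VNP2 and Matrigel, 6 passed, BMP6, ID1, ID2 and ID3 higher and BMP4 and BMP7 lower, where 16.6% of all genes passed (7.44% higher and 9.13% lower). Between VNP2 and VN, 9 passed, with BMP6, BMPER, NOG, BAMBI, ID1, ID2 and ID3 higher and BMP4 and ID4 lower on VNP2, where 5.1% of all genes passed (3.09% higher and 2.01% lower). In the test across the 3 substrates all 10 passed, where 19.3% of all genes did. The first and second of these comparisons share the 2 Matrigel libraries.

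The median log2 difference of the 10 genes was -0.23 for VN against Matrigel, 0.30 for VNP2 against Matrigel and 0.36 for VNP2 against VN, where the medians of all genes were 0.0044, 0.0024 and 0.00073. The libraries of the groups did not overlap for 8, 7 and 9 of the 10 genes, where 44.4%, 48.1% and 23.6% of all genes tested did not overlap. Without VN replicate 1 the genes that passed numbered 5, 6 and 8 in the 3 comparisons. The count for VN against Matrigel rested on having both controls: without either Matrigel replicate 2 or Matrigel replicate 3 it was 1 (BMP7), and without VN replicate 3 it was 3.

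**Figure D1:**
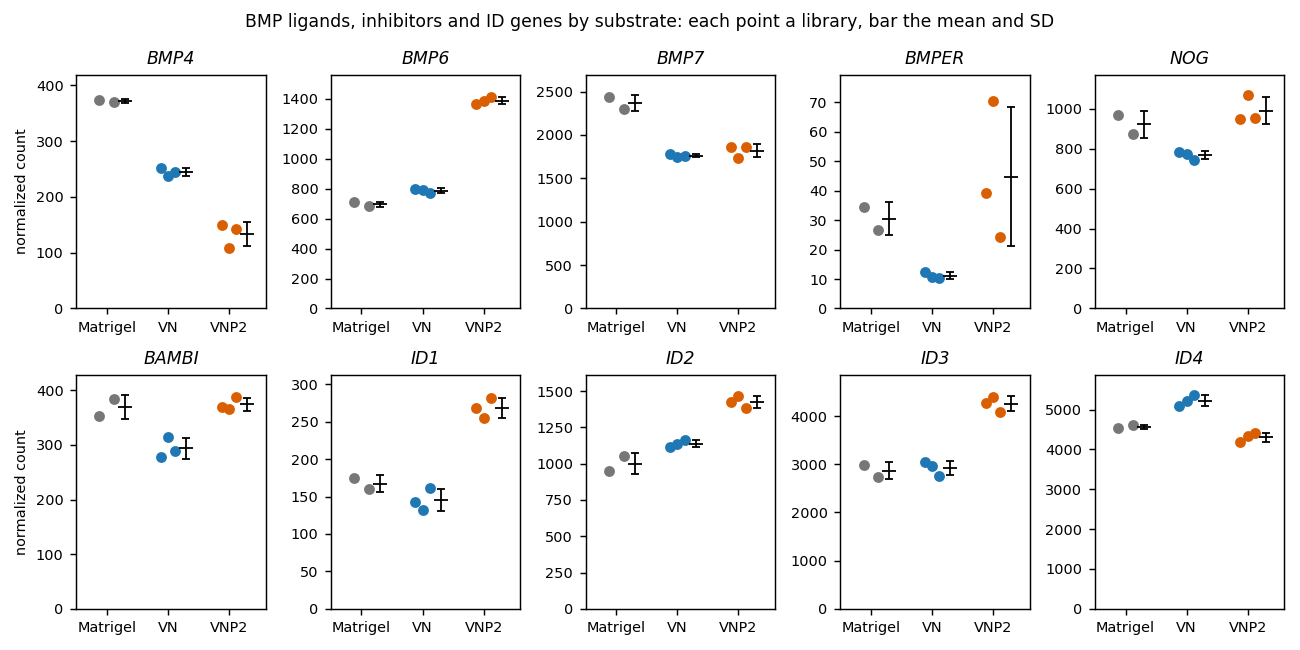
Normalized counts (vertical axes, from 0) of the 10 genes on Matrigel, VN and VNP2 (horizontal axes), with each point a library and the bar the mean and SD. BMP6, ID1, ID2 and ID3 are highest in the 3 VNP2 libraries, BMP4 is lowest there, and BMP7 is highest in the 2 Matrigel libraries.

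**Figure D2:**
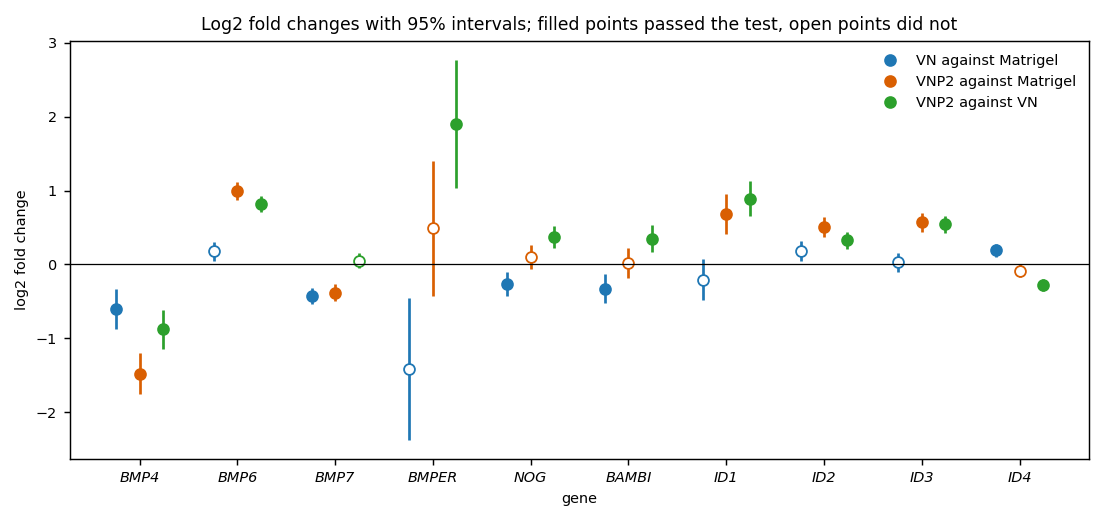
Log2 fold changes (vertical axis) of the 10 genes (horizontal axis) in the 3 pairwise comparisons, with 95% intervals; filled points passed edgeR's quasi-likelihood test. BMP4 is below 0 in all 3 comparisons, ID1, ID2 and ID3 are above 0 in both comparisons that involve VNP2, and the intervals of BMPER are the widest.

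Among the ligands, BMP4 was lowest and BMP6 highest on VNP2. BMP4 (ENSG00000125378, chr14:53949736-53958761, minus strand), a ligand known for patterning the dorsal neural tube, stood at 374 and 369.6 in the Matrigel libraries. Its counts were 252, 237 and 245 in the VN libraries and 149, 109 and 142 in the VNP2 libraries. The 3 groups did not overlap, and the order Matrigel, VN, VNP2 held in every library. BMP4 fell by 34.1% on VN (log2 fold change -0.60, SE 0.122, edgeR adjusted p = 0.00848) and by 64.1% on VNP2 (log2 fold change -1.48, SE 0.126, edgeR adjusted p = 2.20e-05), both against Matrigel. VNP2 was also lower than VN (log2 fold change -0.88, SE 0.119, edgeR adjusted p = 0.00185). The call for VN was lost without Matrigel replicate 2 (edgeR adjusted p = 0.0673) or Matrigel replicate 3 (edgeR adjusted p = 0.0574), whereas both VNP2 calls held with each library left out in turn. Markers of mesenchymal cells did not move one way. The summed level of the 8 listed genes was 49268 to 51148 with Matrigel, 45925 to 48662 with VN and 39610 to 40568 with VNP2, but without COL1A1, singled out after its values were seen, the sum was 25174 to 25745, 29712 to 29924 and 30243 to 31215. Of all genes tested, 7.44% were higher and 9.13% lower on VNP2 than on Matrigel. Of the 8 markers, 5 were higher there (COL1A2, COL3A1, LUM, DCN and TWIST1) and 2 lower (COL1A1 and PRRX1), with a median log2 difference of 0.29. Their part in the result was not tested.

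BMP6 (ENSG00000153162, chr6:7726797-7881422, plus strand), a ligand of the same subfamily as BMP7, followed the opposite course. It stood at 708 and 685 with Matrigel, at 798, 793 and 768 with VN, and at 1364, 1388 and 1409 with VNP2. The 3 VNP2 libraries were far above all others and close to one another. BMP6 rose 1.99-fold on VNP2 against Matrigel (log2 fold change 0.99, SE 0.0556, edgeR adjusted p = 1.06e-06) and 1.76-fold against VN (log2 fold change 0.82, SE 0.0482, edgeR adjusted p = 1.36e-05). Both calls held under every alternative tried. On VN the difference from Matrigel was 0.18 on the log2 scale (95% interval 0.051 to 0.300, edgeR adjusted p = 0.0610), although the libraries did not overlap.

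BMP7 (ENSG00000101144, chr20:57168748-57266629, minus strand) had the highest level per length of the 3 ligands on each substrate. Its normalized counts were 2433 and 2300.5 with Matrigel, 1777, 1742 and 1755 with VN, and 1866, 1729 and 1861 with VNP2. Both vitronectin coatings lay below Matrigel and overlapped with each other. BMP7 fell by 25.7% on VN (log2 fold change -0.43, SE 0.0511, edgeR adjusted p = 0.000322) and by 23.1% on VNP2 (log2 fold change -0.38, SE 0.0511, edgeR adjusted p = 0.000543). VNP2 and VN differed by 0.05 on the log2 scale (95% interval -0.054 to 0.151, edgeR adjusted p = 0.617).

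The transcripts assigned to BMP7 differed between the substrates. Its protein-coding transcripts summed to 28.5 and 28.3 TPM in the Matrigel libraries, to 26.1, 25.9 and 26.3 TPM in the VN libraries and to 23.8, 23.8 and 23.95 TPM in the VNP2 libraries, with no overlap between groups. Transcripts of other types, which do not encode the full protein, made up 17.8% and 14.1% of the level on Matrigel, 14.6%, 7.98% and 14.3% on VNP2, but 1.13%, 2.50% and 2.16% on VN. With only protein-coding transcripts counted, a choice made after these values were seen, BMP7 differed from Matrigel by -0.18 on VN (edgeR adjusted p = 0.0107) and by -0.31 on VNP2 (edgeR adjusted p = 0.000307) on the log2 scale, and the difference of VNP2 from VN became -0.13 (edgeR adjusted p = 0.0544). Without the correction for transcript length, the difference of VN from Matrigel was -0.23 (edgeR adjusted p = 0.0153).

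**Figure D3:**
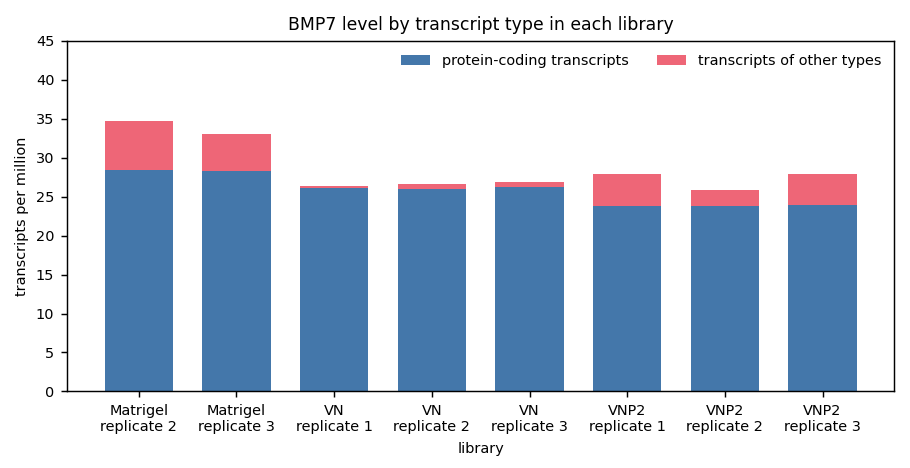
BMP7 level in TPM (vertical axis, from 0) in each of the 8 libraries (horizontal axis), stacked by protein-coding transcripts and transcripts of other types. The protein-coding part steps down from Matrigel to VN to VNP2, and the other part is smallest in the 3 VN libraries.

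Per length, BMP4 and BMP6 stood close together on Matrigel, at 9.98 ± 0.0411 TPM and 9.77 ± 0.185 TPM (SD, n = 2). On VN they were 6.95 ± 0.134 and 11.7 ± 0.179 TPM, and on VNP2 3.75 ± 0.606 and 20.4 ± 0.402 TPM (SD, n = 3). BMP7 stood at 33.8 ± 1.17 TPM on Matrigel (SD, n = 2) and at 26.6 ± 0.221 and 27.2 ± 1.17 TPM on VN and VNP2 (SD, n = 3). The order of the ligands on VN and VNP2 was therefore BMP7, BMP6, BMP4, with each step larger than the SDs.

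BMPER (ENSG00000164619, chr7:33904308-34156356, plus strand) encodes a secreted BMP-binding protein of the crossveinless type that can restrain or aid BMP signalling. It was the least abundant of the 10 genes, with 197 estimated reads over the 8 libraries. Its normalized counts were 34.4 and 26.5 in the Matrigel libraries, 12.5, 10.7 and 10.2 in the VN libraries, and 39.3, 70.5 and 24.2 in the VNP2 libraries. All VN libraries were below all others, and the VNP2 libraries varied widely. BMPER was higher on VNP2 than on VN (log2 fold change 1.91, SE 0.390, edgeR adjusted p = 0.0191). On VN it differed from Matrigel by -1.41 (SE 0.430, edgeR adjusted p = 0.0510), and on VNP2 by 0.49 (95% interval -0.42 to 1.41, edgeR adjusted p = 0.488).

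The size of the BMPER difference was not secure. The reads assigned to it, before any scaling, were 22 and 36 (Matrigel), 17, 15 and 14 (VN), and 29, 33 and 31 (VNP2), and without the correction for transcript length VNP2 exceeded VN by only 0.99 on the log2 scale (edgeR adjusted p = 0.0450). The call for VNP2 against VN was lost without VN replicate 2 (edgeR adjusted p = 0.0681), VN replicate 3 (0.0727) or VNP2 replicate 1 (0.0532). With only protein-coding transcripts counted the difference of VNP2 from VN was -0.27 (edgeR adjusted p = 0.912).

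NOG (ENSG00000183691, chr17:56593699-56595590, plus strand) encodes noggin, the secreted antagonist that binds BMP4 and BMP7 and blocks their receptor sites. Its normalized counts were 967 and 874.5 with Matrigel, 783, 773 and 745 with VN, and 950.2, 1068 and 953 with VNP2. VN was below every other library, while Matrigel and VNP2 overlapped. NOG was higher on VNP2 than on VN by 0.37 on the log2 scale (SE 0.0657, edgeR adjusted p = 0.00933), and this call held with each library left out. It was lower on VN than on Matrigel by a log2 fold change of -0.26 (SE 0.0736, edgeR adjusted p = 0.0367). VNP2 and Matrigel differed by 0.10 (95% interval -0.057 to 0.267, edgeR adjusted p = 0.392). The call for VN against Matrigel was lost without Matrigel replicate 2 (edgeR adjusted p = 0.280), Matrigel replicate 3 (0.0618), VN replicate 2 (0.0766), VN replicate 3 (0.105) or VNP2 replicate 3 (0.0531).

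BAMBI (ENSG00000095739, chr10:28677342-28682939, plus strand) encodes a transmembrane pseudoreceptor, which resembles a type I receptor but lacks the kinase and dampens BMP and TGF-β signals. It is itself induced by BMP signalling. Its normalized counts were 353 and 384 with Matrigel, 277, 315 and 289 with VN, and 369.9, 366 and 387 with VNP2. As for NOG, the VN libraries were the lowest and the other groups overlapped. BAMBI differed by -0.33 between VN and Matrigel (SE 0.0900, edgeR adjusted p = 0.0339) and by 0.35 between VNP2 and VN (SE 0.0808, edgeR adjusted p = 0.0337), both on the log2 scale. VNP2 and Matrigel differed by 0.02 (95% interval -0.177 to 0.219, edgeR adjusted p = 0.910).

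Both BAMBI calls lay near the threshold. For VN against Matrigel the edgeR adjusted p was above 0.05 without any single library except VN replicate 2, and reached 0.221 without Matrigel replicate 3. For VNP2 against VN it was 0.0506 without VN replicate 1, 0.108 without VN replicate 3, and 0.0967, 0.0796 and 0.122 without VNP2 replicates 1, 2 and 3. DESeq2 gave an adjusted p of 0.0724 for VN against Matrigel and of 0.0530 for VNP2 against VN.

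ID1, ID2 and ID3 rose on VNP2 against both other substrates. ID1 (ENSG00000125968, chr20:31605283-31606515, plus strand), whose promoter is a widely used BMP reporter, had normalized counts of 175 and 159.7 with Matrigel, 143, 132 and 161 with VN, and 269, 255 and 282 with VNP2. The VNP2 libraries were above all others, while Matrigel and VN overlapped. ID1 rose 1.61-fold against Matrigel (log2 fold change 0.68, SE 0.120, edgeR adjusted p = 0.00301) and 1.85-fold against VN (log2 fold change 0.89, SE 0.107, edgeR adjusted p = 0.000886). VN and Matrigel differed by -0.20 (95% interval -0.48 to 0.068, edgeR adjusted p = 0.300).

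ID2 (ENSG00000115738, chr2:8678845-8684453, plus strand), which in rodent OPCs is known as an inhibitor of differentiation, stood at 951 and 1050.3 with Matrigel, at 1114, 1136 and 1165 with VN and at 1425, 1467 and 1387 with VNP2. The groups followed one another without overlap. ID2 rose by 0.51 on VNP2 against Matrigel (SE 0.0599, edgeR adjusted p = 0.000210) and by 0.32 against VN (SE 0.0525, edgeR adjusted p = 0.00537), both log2 fold changes. The difference of VN from Matrigel was 0.19 (SE 0.0601, edgeR adjusted p = 0.0631), which came to an adjusted p of 0.0455 without VN replicate 1.

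ID3 (ENSG00000117318, chr1:23557918-23559794, minus strand), a close relative of ID1 in sequence and regulation, stood at 2992 and 2743 with Matrigel, at 3041, 2972 and 2752 with VN and at 4273, 4402 and 4093 with VNP2. The VNP2 libraries were again above all others, and the other groups overlapped throughout. ID3 rose 1.48-fold against Matrigel (log2 fold change 0.57, SE 0.0574, edgeR adjusted p = 7.21e-05) and 1.46-fold against VN (log2 fold change 0.54, SE 0.0507, edgeR adjusted p = 0.000201). VN and Matrigel differed by 0.03 (95% interval -0.100 to 0.155, edgeR adjusted p = 0.797). The calls of ID1, ID2 and ID3 on VNP2, against Matrigel and against VN, held under every alternative tried.

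ID4 (ENSG00000172201, chr6:19837386-19840684, plus strand), which has been tied to the timing of oligodendrocyte differentiation, behaved otherwise. Its counts were 4529 and 4608 with Matrigel, 5092, 5212 and 5379 with VN and 4190.3, 4325 and 4405 with VNP2. VN was the highest group and VNP2 the lowest, without overlap. ID4 was higher on VN than on Matrigel by 0.19 on the log2 scale (SE 0.0399, edgeR adjusted p = 0.00891) and lower on VNP2 than on VN, with a log2 fold change of -0.28 (SE 0.0355, edgeR adjusted p = 0.00122). VNP2 and Matrigel differed by -0.09 (95% interval -0.17 to 0.0032, edgeR adjusted p = 0.188). The call for VN against Matrigel was lost without Matrigel replicate 2 (edgeR adjusted p = 0.0795) or Matrigel replicate 3 (0.0572).

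Per length, ID3 was the most abundant of the family on each substrate, followed by ID4, ID2 and ID1, and neighbours in this order were separated by more than their SDs. ID3 stood at 157 ± 8.89 TPM on Matrigel (SD, n = 2) and at 169.6 ± 7.08 and 245 ± 8.40 TPM on VN and VNP2 (SD, n = 3). ID4 stood at 80.2 ± 1.37, 97.2 ± 4.07 and 79.2 ± 2.25 TPM, ID2 at 45.3 ± 3.38, 54.6 ± 2.03 and 67.6 ± 1.78 TPM, and ID1 at 9.53 ± 0.579, 8.77 ± 0.925 and 16.0 ± 0.835 TPM, in the same order and with the same n. The gap between ID4 and ID2 was narrowest on VNP2.

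The summed level of the 4 ID genes was 296 and 289 TPM with Matrigel, 327, 335 and 329 TPM with VN, and 405, 417 and 400.2 TPM with VNP2, with no overlap between groups. Within this sum the share of ID4 was 26.8% and 28.1% on Matrigel and 28.4% to 30.7% on VN, and 19.0% to 20.3% on VNP2. ID3 made up 52.2% and 55.3% on Matrigel, 49.1% to 53.0% on VN and 59.0% to 60.6% on VNP2. The share of ID2 overlapped across the substrates and lay between 14.5% and 17.2% in all libraries. On VNP2 the family was thus larger in total and held a greater part of ID3 and a smaller part of ID4.

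**Figure D4:**
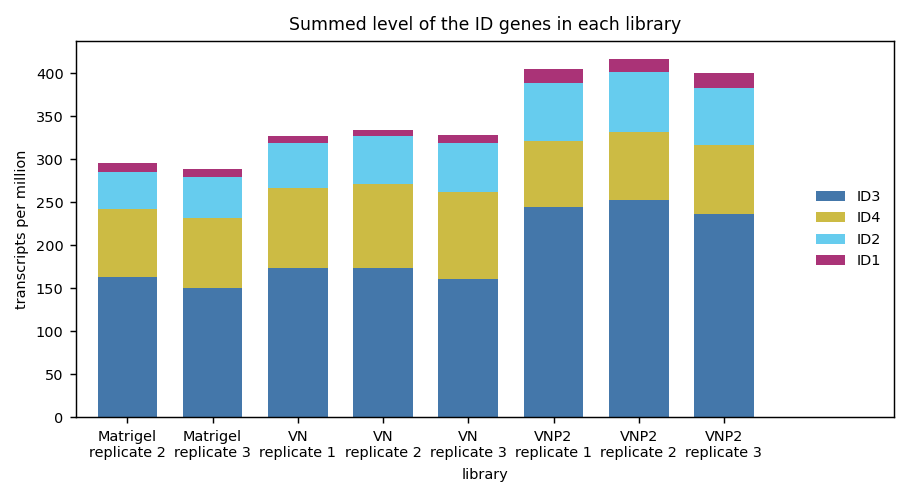
Summed level of ID3, ID4, ID2 and ID1 in TPM (vertical axis, from 0) in each of the 8 libraries (horizontal axis), stacked by gene. The 3 VNP2 libraries reach 400.2 to 417 TPM, above the other 5, and the ID3 section grows most.

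Astrocyte markers were followed because BMP signalling is known for favouring that fate. The defining astrocyte genes GFAP and AQP4 had 42 and 27 estimated reads over the 8 libraries. The summed level of the 7 astrocyte markers was 13103 to 13604 with Matrigel, 7973 to 8509 with VN and 9549 to 10090.0 with VNP2, most of it GJA1. Without GJA1, singled out after its values were seen, the sum was 1722 to 1763, 1614 to 1717 and 1906 to 2136, in the same order of substrates. Of the 5 astrocyte markers tested, GJA1 was lower than on Matrigel on both vitronectin coatings, and SLC1A3 was higher on VNP2 than on Matrigel and VN. GJA1 was also higher on VNP2 than on VN. The neuron markers, 7 of 7 tested, summed to 41514 and 43104 with Matrigel, to 45963 to 49009 with VN and to 51431 to 52848 with VNP2, where 4 were higher than on Matrigel on each vitronectin coating and 1, GAP43, was lower on VN. The oligodendrocyte lineage list summed to 6656 and 6768 with Matrigel, to 7132 to 7547 with VN and to 7398 to 7860 with VNP2. Of its 8 tested genes, 2 were higher (OLIG1 and OLIG2) and 1 lower (MYRF) on VN than on Matrigel, and 5 higher (OLIG1, OLIG2, NKX2-2, PDGFRA and CSPG4) and 2 lower (MYRF and MBP) on VNP2 than on Matrigel. MBP was also lower and NKX2-2 higher on VNP2 than on VN. The neuron markers STMN2, DCX and GAP43 were higher on VNP2 than on VN as well. Among all genes tested, 15.3% passed on VN and 16.6% on VNP2 against Matrigel, and 5.1% for VNP2 against VN. Sums for the neural crest were 1252 to 1313, 1294 to 1432 and 1449 to 1520, with FOXD3 and SOX10 near 0. Sums for the dorsal neural tube, nearly all ZIC1, were 3079 to 3545, 4308 to 4576 and 4695 to 5019, in the same order. Those for pluripotent cells were 5785 to 6148, 4584 to 4730 and 4324 to 4553, most of it LIN28A. Without LIN28A, singled out after its values were seen, they were 1524 to 1646, 1634 to 1735 and 1644 to 1718. The part of these lists in the levels of the BMP and ID genes was not tested.

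The other genes of the pathway were read from fixed lists of 58 genes, of which 46 were tested. Of these, 6 were higher and 9 lower on VN than on Matrigel, 8 higher and 11 lower on VNP2 than on Matrigel, and 5 higher and 1 lower on VNP2 than on VN. These were 32.6%, 41.3% and 13% of the 46 genes, where 15.3%, 16.6% and 5.1% of all genes tested passed. Their median log2 differences were -0.13, -0.09 and 0.05. These counts fell without single libraries: the first was 9 without Matrigel replicate 3, the second 11 without Matrigel replicate 2 and 12 without Matrigel replicate 3. The third, 6 in all, was 3 without VN replicate 2, VN replicate 3, VNP2 replicate 1 or VNP2 replicate 2, and 2 without VNP2 replicate 3.

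Of the other ligands, 7 of 11 were tested. Against Matrigel, BMP2 and GDF6 fell on both vitronectin coatings as BMP4 did, and BMP3 rose on VN. These calls were 42.9% of the 7 on VN and 28.6% on VNP2, where 15.3% and 16.6% of all genes passed. BMP3 had group means of 26.8 (Matrigel), 56.4 (VN) and 39.1 (VNP2). Its log2 fold change on VN, 1.07 (SE 0.255, edgeR adjusted p = 0.0185), lost the call without some single libraries. BMP2, the closest relative of BMP4, had group means of 224 (Matrigel), 101 (VN) and 82.6 (VNP2), with log2 fold changes against Matrigel of -1.15 (SE 0.156, edgeR adjusted p = 0.000767) and -1.44 (SE 0.158, edgeR adjusted p = 0.000132). GDF6, a ligand known from dorsal ectoderm and joints, averaged 132, 54.6 and 36.9, with log2 fold changes of -1.27 (SE 0.178, edgeR adjusted p = 0.000967) and -1.83 (SE 0.184, edgeR adjusted p = 6.82e-05). For neither gene did VNP2 pass the test against VN, with differences of -0.29 and -0.56 on the log2 scale. For BMP4 it did.

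Of the receptors and coreceptors, 10 of 12 were tested. Against Matrigel, BMPR1B and ACVR2B were higher on VN. On VNP2, BMPR1A, BMPR1B and ACVR2B were higher and RGMA and RGMB lower. Against VN, BMPR1A and BMPR1B were higher and RGMB lower on VNP2. These were 20%, 50% and 30% of the 10, where 15.3%, 16.6% and 5.1% of all genes passed. Every call of ACVR2B, RGMA and RGMB, and that of BMPR1B against VN, was lost without some single libraries. BMPR1A, a type I receptor for BMP4, averaged 3812 and 3841 on Matrigel and VN and 5042 on VNP2, a log2 rise of 0.40 against Matrigel (SE 0.0466, edgeR adjusted p = 0.000191) and of 0.39 against VN (SE 0.0413, edgeR adjusted p = 0.000448). BMPR1B, the other main type I receptor, averaged 1856, 2247 and 2592, with log2 differences from Matrigel of 0.28 on VN (SE 0.0507, edgeR adjusted p = 0.00514) and 0.48 on VNP2 (SE 0.0507, edgeR adjusted p = 9.83e-05). The call of BMPR1B on VN was lost without Matrigel replicate 3 (edgeR adjusted p = 0.0616). Of the 4 SMAD transducers only SMAD9 passed in a comparison, at 0.38 on VNP2 against Matrigel (SE 0.0984, edgeR adjusted p = 0.0248), and this was lost without Matrigel replicate 2 (0.0765), Matrigel replicate 3 (0.168), VNP2 replicate 2 (0.0714) or VNP2 replicate 3 (0.0838).

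Of the 21 other antagonists, binding proteins and related proteases listed, 16 were tested. Against Matrigel, 5 fell and 1 rose on VN, and 6 fell and 2 rose on VNP2. Of all genes tested, 9.6% were lower and 5.66% higher on VN, and 9.13% lower and 7.44% higher on VNP2. The genes that rose were all proteases, TLL2 on VN and TLL1 and TLL2 on VNP2, while the protease BMP1 fell on both. FST, the activin and BMP antagonist follistatin, had group means of 3496 (Matrigel), 2251 (VN) and 2124 (VNP2) (log2 fold changes -0.64 and -0.72, SE 0.0408 for each, edgeR adjusted p = 4.47e-06 and 1.17e-06). CRIM1, a membrane protein that tethers BMPs, averaged 2892, 1137 and 1346 (log2 fold changes -1.35 and -1.10, SE 0.0546 and 0.0543, edgeR adjusted p = 2.04e-07 and 4.60e-07). CHRD, which encodes chordin, averaged 298, 186 and 255 and fell on VN against Matrigel (log2 fold change -0.68, SE 0.112, edgeR adjusted p = 0.00282), with VN the lowest group mean as for NOG and BAMBI. TLL2, a protease of the family that cleaves chordin, averaged 349, 527 and 663 (log2 fold changes 0.60 and 0.93, SE 0.108 and 0.107, edgeR adjusted p = 0.00472 and 0.000192). GREM1 was not tested in edgeR, since the matched transcripts held only 2.15% of its deposited normalized counts. In limma on those deposited counts (pseudocount 1) its log2 fold change against Matrigel was -1.51 on VN (limma adjusted p = 0.00218). On VNP2 it was -2.20 against Matrigel (limma adjusted p = 8.71e-05) and -0.69 against VN (limma adjusted p = 0.128).

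Of 9 other BMP-induced genes listed, 8 were tested. Between VNP2 and VN, 0 of them passed in edgeR, where ID1, ID2 and ID3 all did, and DESeq2 and limma also gave 0. With 5.1% of all genes passing in that comparison, 0 of 8 is near the background. At an unadjusted p under 0.05 edgeR counted 3 of them, DLX5, HEY1 and ATOH8, all higher on VNP2. At the same threshold DESeq2 counted 1, ATOH8, and limma (pseudocount 1) counted 2, HEY1 and ATOH8. The share of all genes under this threshold was not counted, so these numbers have no background beside them. Against Matrigel, 2 rose (HEY1 and DLX5) and 2 fell (SMAD6 and ATOH8) on VN, and 3 rose on VNP2 (SMAD9, HEY1 and DLX5). Of all genes tested, 15.3% passed on VN and 16.6% on VNP2 against Matrigel. Without Matrigel replicate 3 the calls on VN of DLX5 (edgeR adjusted p = 0.137) and ATOH8 (0.0551) were lost. HEY1, also a Notch target, averaged 1072, 1453 and 1582 (log2 fold changes 0.44 and 0.56, SE 0.0567 for each, edgeR adjusted p = 0.000569 and 7.25e-05). SMAD6, an inhibitory SMAD, averaged 468, 355 and 368, with a log2 fold change on VN of -0.40 (SE 0.107, edgeR adjusted p = 0.0307) that was lost without Matrigel replicate 2 (0.182), Matrigel replicate 3 (0.102), VN replicate 2 (0.0720) or VN replicate 3 (0.0944).

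**Figure D5:**
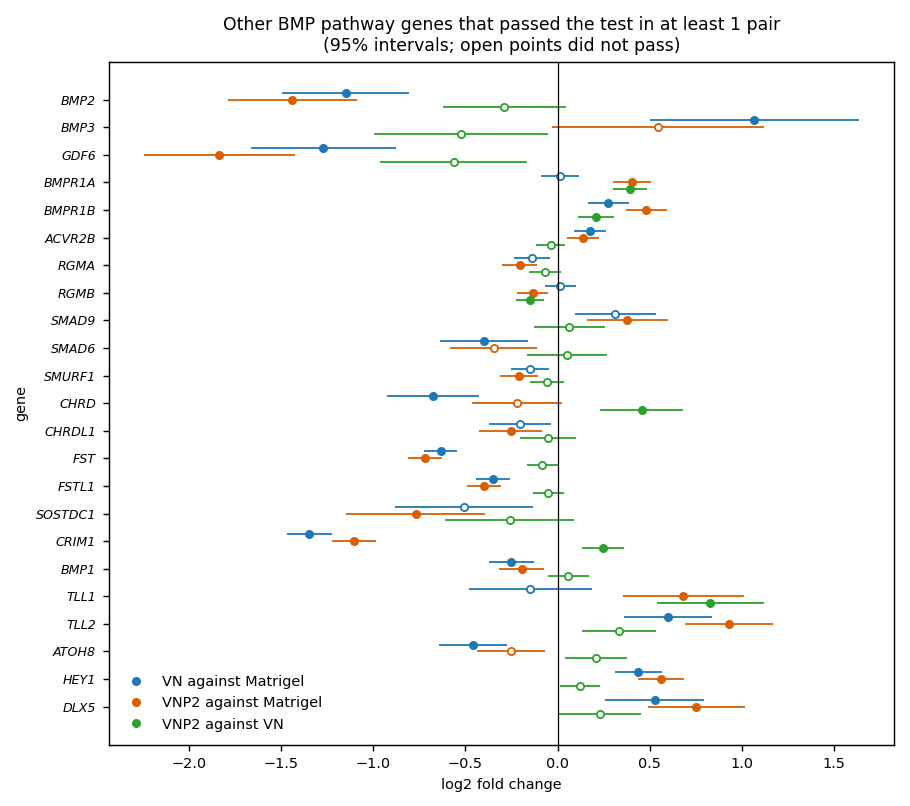
Log2 fold changes (horizontal axis) of the other BMP pathway genes that passed in at least 1 pairwise comparison (vertical axis), with 95% intervals and open points for comparisons that did not pass edgeR's quasi-likelihood test. BMP2, GDF6, FST and CRIM1 lie well below 0 against Matrigel on both vitronectin coatings, and the interval of BMPR1A excludes 0 in the 2 comparisons that involve VNP2.

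The basic helix-loop-helix partners and counterparts of ID proteins were also read. Against Matrigel, TCF4, OLIG1, OLIG2 and NEUROG1 were higher on VN, and TCF12, OLIG1 and OLIG2 were higher on VNP2. Among all genes tested, 15.3% passed on VN and 16.6% on VNP2 against Matrigel. TCF12, an E protein that ID proteins bind, had group means of 10944 (Matrigel), 11276 (VN) and 12809 (VNP2), and differed from Matrigel by 0.23 on VNP2 (SE 0.0391, edgeR adjusted p = 0.00271). TCF12 was also higher on VNP2 than on VN, by 0.18 (SE 0.0348, edgeR adjusted p = 0.0125), a call lost without some single libraries. On VN, TCF4, OLIG1, OLIG2 and NEUROG1 each lost the call without Matrigel replicate 3 (edgeR adjusted p = 0.113, 0.0515, 0.0551 and 0.183), and TCF4, OLIG1 and NEUROG1 also without Matrigel replicate 2 (0.0989, 0.0664 and 0.0996). Without VN replicate 3 the calls of TCF4 (0.0607) and NEUROG1 (0.0960) were lost, as was that of NEUROG1 without VN replicate 2 (0.0653), and OLIG2 on VNP2 lost its call without Matrigel replicate 3 (0.143).

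For each of the 10 genes, the tested genes with the most similar course were sought among the 12996 genes whose normalized count averaged 100 or more, as the root mean square difference of centred log2 values over the 8 libraries. For BMP4 these were COL1A1 (0.121) and RASGRF2 (0.135), and COL1A1, a fibrillar collagen, had group means of 24749 (Matrigel), 17050 (VN) and 9341 (VNP2). For BMP6 they were ARFGEF3 (0.0441) and MAOB (0.0735), and for BMP7 HCCS (0.0362) and WDR1 (0.0372). NOG lay nearest to ITGA9 (0.0484) and SEPT9 (0.0563), and BAMBI to CDC42EP3 (0.0443) and EFNB2 (0.0588). ID1 lay nearest to LGI1 (0.0928) and MYO1G (0.103), ID2 to PCDH18 (0.0442) and NAV1 (0.0450), ID3 to ANO1 (0.0444) and ETV5 (0.0458), and ID4 to AL157392.3 (0.0292) and AC083843.2 (0.0385). BMPER had no close neighbour, since the nearest, TMEM189-UBE2V1 and CD36, were 0.483 and 0.511 away. No nearest gene of any of the 10 was another of the 10.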

How the data were processed

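RNA-seq libraries of H9-derived OPCs on Matrigel (2), VN (3) and VNP2 (3) were compared. The authors trimmed reads with Trim Galore and quantified transcripts with Salmon against GRCh38.p13 (GENCODE release 32). Per the file headers the deposited files hold estimated counts and TPM per transcript, and the authors also deposited gene-level normalized counts (a signal, scaled with DESeq2 1.27.12). Groups and replicate numbers came from the sample titles.

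Estimated counts were summed per gene through GENCODE release 29 (205225 of 226608 transcripts matched, 98.8% to 98.9% of reads) and rounded, with TMM factors and transcript-length offsets. Transcript models absent from release 29 therefore do not count, and the mean level of each of the 10 genes came to 1.00 of that in the deposited normalized counts. edgeR 4.0.16 (R 4.3.3) quasi-likelihood tests, two-sided, were fitted on all 8 libraries and the 18201 genes passing filterByExpr (at least 10 counts in the smaller group's number of libraries and 15 in all). P-values were Benjamini-Hochberg adjusted over all genes tested and called under 0.05. In a simulated VN against Matrigel comparison of 15988 genes, 86 of 100 genes changed 1.5-fold and 96 of 100 changed 2-fold were recovered, with 7 false calls. The simulation gave all genes the same dispersion, left out genes with low counts and had no library standing apart. These rates may therefore not hold for the real libraries.

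The alternatives were RLE factors, DESeq2 1.42.0, no length offsets, other filters, the replicate block, each library left out in turn, the libraries of the pair alone, limma 3.58.1 on the deposited normalized counts with pseudocounts 1 and 4, and, added after the data were seen, protein-coding transcripts alone. The 10 genes and the lists were chosen with earlier results of these data known. Named besides the 10 are listed pathway genes that passed in a pairwise comparison, and the 2 nearest genes of each of the 10. Not every gene of the list of ID partners is reported here. Replicate numbers were not used to pair the libraries in the main test. Deviations of same-numbered libraries from their group means correlated between -0.133 and 0.161. With 2 or 3 libraries per group these deviations are tied to one another, so the correlations cannot settle whether libraries were paired. Promoter windows were read from RefSeq (GRCh38.p14), where 8 of the 10 genes had an entry and BMP7 and NOG had none. The deposited sequencing depth limits precision most for low genes such as BMPER, and the intervals cover the spread between these libraries.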

Additional observations from a re-analysis of the deposited data

How the results depend on the processing

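The 10 genes passing the test across the substrates numbered 8 to 10 with each library left out in turn. Those passing for VN against Matrigel numbered 1 to 5, for VNP2 against Matrigel 6 to 6 and for VNP2 against VN 7 to 9, and the other pathway genes 9 to 20, 11 to 20 and 2 to 7 in the same order. With the replicate block the 10 genes gave 10, 5, 6 and 9, and the pathway genes 19, 20 and 7. The block took BAMBI on VN against Matrigel past the threshold (edgeR adjusted p = 0.0646) and brought BMPER there under it (0.0386), and changed no other call of the 10 genes. RLE factors changed none of their 30 calls. No scaling moved the median of all genes by 0.1 on the log2 scale.

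Signs turned in the differences given next, none of which had passed the test except BMPER for VNP2 against VN, and the cause was not tested. Without length offsets VNP2 against VN gave -0.072 for BMP7 and -0.018 for SMAD6, and VN against Matrigel gave -0.0028 for ID3. With protein-coding transcripts alone VNP2 against VN gave -0.13 for BMP7, -0.27 for BMPER and 0.060 for TCF4, and VNP2 against Matrigel -1.11 for BMPER. With single libraries left out, VN against Matrigel ran from -0.034 to 0.096 for ID3, from -0.011 to 0.040 for BMPR1A, from -0.0041 to 0.037 for RGMB and from -0.0016 to 0.095 for TCF12. Likewise VNP2 against Matrigel ran from -0.033 to 0.084 for BAMBI and from -0.024 to 0.223 for NEUROG1, and VNP2 against VN from -0.043 to 0.131 for SMAD6 and from -0.122 to 0.019 for CHRDL1. BMPER has no value where at least 50 counts per library were required. BMPER against Matrigel on VN passed in DESeq2 (adjusted p = 0.0482) and under other settings, and BMP6 (edgeR adjusted p = 0.0236) and ID2 (0.0392) did so with protein-coding transcripts alone.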
